A study of Drosophila melanogaster with 2 samples.

Results

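Among the binding sites of the transcription factor GATAe in the Drosophila melanogaster embryo, 287 lay inside introns and yet had no GATA sequence at their centre. A member was a peak of the conservative list, the authors' list that pairs the replicates, on a chromosome arm, with its summit inside a gene body, in no exon and more than 500 bp from every annotated transcription start site (TSS), and with no four-base core (GATA, or TATC on the other strand) lying whole within 50 bp of the summit. They were 287 of 1156 intronic peaks and of 3032 peaks on the arms, in a list of 3047. The other 869 intronic peaks had a core at the summit and served as the comparison. The rule used position and sequence and no signal value. The flies were of the strain GATAe-GFP, which carries an insertion that fuses GATAe to enhanced green fluorescent protein (eGFP), and chromatin from whole embryos aged 0 to 24 h was sonicated to 200 to 800 bp and precipitated with an antibody to GFP. All embryos formed 1 group, sampled as 2 biological replicates, with no other genotype or treatment. A control experiment named in the labels was not used here. Chromatin of all tissues and of a whole day of development was mixed, so a site bound in few cells and a site weakly bound in many cannot be told apart, and the tissue in which a site was bound cannot be read from these data.

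GATA factors are zinc-finger proteins that bind the core GATA, most strongly in the longer form WGATAR, where W is A or T and R is A or G. GATAe acts in the fly endoderm and midgut, downstream of serpent. A transcription factor can also be brought to DNA by partner proteins or through weaker variants of its word, and chromatin immunoprecipitation recovers fragments several times longer than the word itself, so a summit need not lie on the word.

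The sequence around the strongest members is shown because the absence of the core at the summit is what defines them. Each run is 100 bp to either side of the summit on the + strand of dm6, 5′ to 3′, taken from the RefSeq copy of that assembly, with every GATA or TATC in capitals. The summit is the middle base. These are 9 of the strongest members on arms 2L, 3L, 3R and X that were called in both replicates, each named by its host gene, and the runs were lengthened to this span after their values were seen.
Trl (chr3L:14759419-14759619): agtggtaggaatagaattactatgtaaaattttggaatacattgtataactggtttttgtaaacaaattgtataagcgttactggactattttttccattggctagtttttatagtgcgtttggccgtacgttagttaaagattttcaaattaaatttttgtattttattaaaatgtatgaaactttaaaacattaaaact
CG32772 (chrX:4910275-4910475): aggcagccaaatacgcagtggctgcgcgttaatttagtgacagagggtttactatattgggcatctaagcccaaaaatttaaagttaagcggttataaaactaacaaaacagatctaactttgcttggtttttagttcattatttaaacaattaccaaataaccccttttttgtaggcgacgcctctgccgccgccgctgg
Cdep (chr3R:4912273-4912473): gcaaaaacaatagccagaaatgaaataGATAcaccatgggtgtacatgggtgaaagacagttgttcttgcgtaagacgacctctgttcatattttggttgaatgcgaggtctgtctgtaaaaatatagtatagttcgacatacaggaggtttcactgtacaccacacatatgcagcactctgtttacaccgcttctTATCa
CG9837 (chr3R:8811589-8811789): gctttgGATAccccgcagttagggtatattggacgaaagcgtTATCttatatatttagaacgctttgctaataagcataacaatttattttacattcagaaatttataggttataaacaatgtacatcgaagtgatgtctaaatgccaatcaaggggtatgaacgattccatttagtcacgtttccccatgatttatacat
sima (chr3R:30103148-30103348): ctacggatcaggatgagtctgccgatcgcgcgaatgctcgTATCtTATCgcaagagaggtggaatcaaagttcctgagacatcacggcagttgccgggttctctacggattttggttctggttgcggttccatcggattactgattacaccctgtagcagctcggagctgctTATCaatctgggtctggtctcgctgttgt
Tis11 (chrX:12666521-12666721): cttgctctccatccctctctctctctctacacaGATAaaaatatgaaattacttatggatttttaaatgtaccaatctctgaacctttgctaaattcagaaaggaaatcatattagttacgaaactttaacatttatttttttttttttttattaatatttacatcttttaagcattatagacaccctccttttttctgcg
CHES-1-like (chrX:7706898-7707098): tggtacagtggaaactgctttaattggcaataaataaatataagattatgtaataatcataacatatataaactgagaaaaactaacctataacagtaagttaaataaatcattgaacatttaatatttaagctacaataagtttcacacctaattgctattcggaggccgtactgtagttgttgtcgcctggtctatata
NFAT (chrX:13640409-13640609): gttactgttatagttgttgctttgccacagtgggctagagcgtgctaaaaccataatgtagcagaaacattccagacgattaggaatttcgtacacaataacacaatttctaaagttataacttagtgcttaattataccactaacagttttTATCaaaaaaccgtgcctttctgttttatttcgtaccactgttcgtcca
Hyls1 and chif (chr2L:16351108-16351308): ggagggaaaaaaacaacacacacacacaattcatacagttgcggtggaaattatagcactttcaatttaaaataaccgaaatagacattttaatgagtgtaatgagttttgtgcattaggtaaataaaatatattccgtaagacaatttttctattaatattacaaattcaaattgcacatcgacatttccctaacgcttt
In the Trl, CG32772, CHES-1-like and Hyls1/chif runs no core was found on either strand. The other 5 runs had 1 to 3 cores, all of them away from the middle. In the sima run a pair of cores stood a few bases apart on one side of the summit, and the nearest one ended 55 bp from it.

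For comparison, the strongest pair of intronic summits with a core on the same arms is shown with 50 bp to either side of the summit.
CG11050 (chr2L:6612653-6612753): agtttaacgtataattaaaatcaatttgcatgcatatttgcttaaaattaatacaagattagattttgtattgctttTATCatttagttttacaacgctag
p130CAS (chr3L:156675-156775): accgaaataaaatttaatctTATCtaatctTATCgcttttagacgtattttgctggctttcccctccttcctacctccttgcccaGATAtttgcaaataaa
The CG11050 peak had a signal of 875 and 1 core, and the p130CAS peak had a signal of 533 and 3 cores. Both windows held WGATAR.

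The strongest member lay in Trl (FBgn0013263), which encodes the GAGA factor. It covered 14759373 to 14759654 on 3L, 1530 bp from the nearest TSS, and its nearest core began 110 bp from the summit. Its deposited signal, the authors' measure of peak strength, was 503 in the main list, 295 in the ranked list of replicate 1 and 200.5 in that of replicate 2. Lists differ in their scale of signal, so it ranks peaks within a list only. Trl ranked 20 among all 3032 peaks.

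Adf1 (FBgn0284249), which encodes a DNA-binding regulator first found at the Adh promoter, had the next member, with a signal of 432 in the main list, 266 in replicate 1 and 175 in replicate 2. CG32772 (FBgn0052772) followed with 334, 211 and 115 in the same order of lists. The CG32772 summit had no core for 284 bp and none in the whole deposited peak. Cdep, which encodes a FERM-domain protein, had 326 in the main list, 155 in replicate 1 and 153 in replicate 2, and CG9837 had 298, 168 and 122.

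The next in strength included further transcription factor genes. In sima, the fly hypoxia-inducible factor alpha, the signal was 277 in the main list, 148 in replicate 1 and 123 in replicate 2. The NFAT member had 254, 123 and 126 in the same lists, and CHES-1-like, a forkhead gene, had 264, 155 and 117. CrebB, the fly CREB, had 202, 99.3 and 110. The kay member, in the gene for the Fos subunit of AP-1, had 200 in the main list, 99.5 in replicate 1 and 106 in replicate 2. No list of transcription factor genes was compared. Tis11, which encodes a zinc-finger protein of mRNA decay, had 265, 150 and 105.

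Others of the 20 strongest were in sbb with CG14502, Hyls1 with chif, raw, Fem-1, stx, CG17230 with PGRP-LB, shn and Dhc64C, with main-list signals of 189 to 226. PGRP-LB is an amidase that dampens the IMD immune response, raw restrains JNK signalling, and Dhc64C is the cytoplasmic dynein heavy chain. The 20 were called past the authors' threshold in both replicates without exception, against 35.2% of all members. They were picked by signal in a list that pairs the replicates, and equally strong peaks with a core were not compared. In 19 of 20 the summit lay in a first intron, and Trl was the exception. WGATAR stood within 100 bp of the summit in 12 of the 20, and 6 had no core inside the deposited peak. Deposited peaks were narrower than 360 bp in 16 of the 20, whereas 266 of all 287 members had peaks of 360 bp. A narrower peak holds less sequence in which a core could lie, and the part of peak width in the count of 6 was not tested. The summit windows of the 20 averaged 33.3% GC, against 38.9% over all members.

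**Figure D1:**
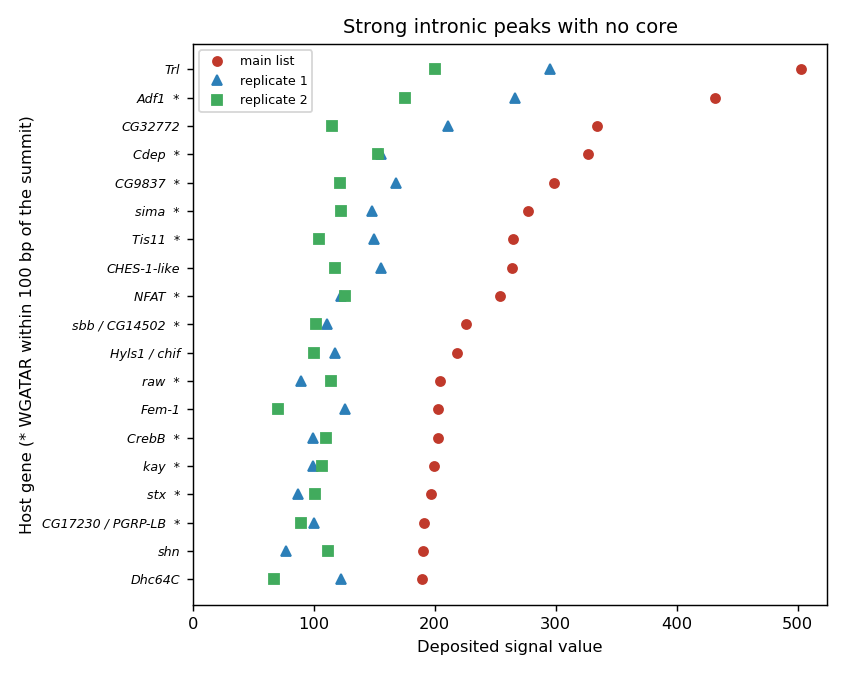
Deposited signal (x axis, no unit) of 19 of the 20 strongest members (y axis, host genes, strongest at the top) in the main list and in the ranked list of each replicate. The main-list values run from 189 in Dhc64C to 503 in Trl, and an asterisk marks the 12 members with WGATAR within 100 bp of the summit.

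Most members were weaker than these. The median main-list signal was 80.8 at members (quartiles 65.4 and 109, range 2.15 to 503) and 92.0 at intronic peaks with a core, a ratio of medians of 0.879. The ratio was 1.01 in replicate 1's own ranked list, with medians of 48.4 at members and 48.0 at peaks with a core, and 0.864 in replicate 2's, with 39.7 and 46.02. Members therefore had the lower median in the main list and in replicate 2 and not in replicate 1. The quartiles overlapped widely in every list. Across members, Spearman's rho between the replicates' signals was 0.511 (n = 284 peaks), against 0.590 with a core (n = 862), where the points share their libraries and were all selected for the main list.

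**Figure D2:**
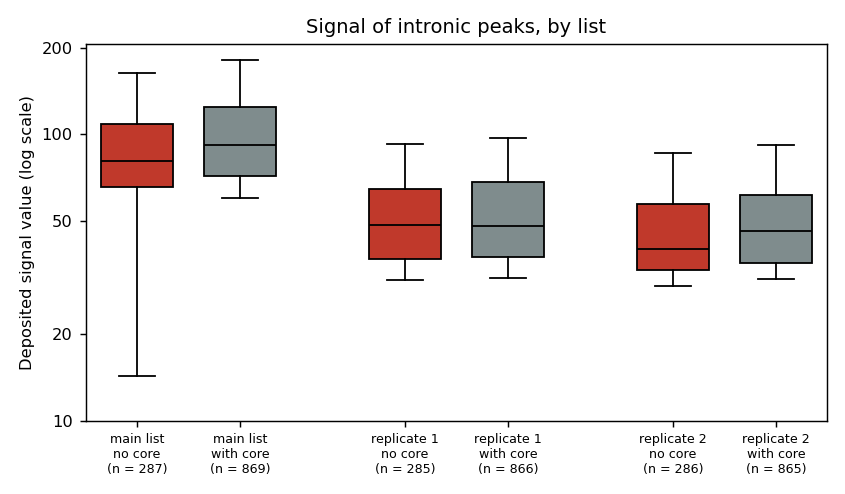
Deposited signal (y axis, log scale, no unit) of intronic peaks without and with a core in the main list and in each replicate's ranked list. Boxes span the quartiles with the median as a line, whiskers reach the 10th and 90th percentiles, and the lower whisker of members in the main list falls to 13.5.

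Fewer members than other intronic peaks were called in both replicates. Of 287 members, 35.2% overlapped a thresholded peak of each replicate (exact 95% interval 29.7 to 41.02%), against 385 of 869 peaks with a core (44.3%) and 46.5% of all peaks on the arms. The difference from peaks with a core was -9.11 percentage points (Newcombe 95% interval -15.4 to -2.55). Replicate 2 carried it. There 41.5% of members were called, against 55.5% with a core, a difference of -14.0 points (-20.4 to -7.34). In replicate 1 the shares were 66.2% and 68.1%, and the interval of that difference reached from -8.33 to 4.19 points. Over all peaks on the arms, 71.7% were called in replicate 1 and 55.1% in replicate 2. A further 79 members (27.5%) overlapped no thresholded peak of either replicate. That share was 20.7% with a core, 19.7% over all peaks on the arms and 16.9% at core-free summits within 500 bp of a TSS. Core-free summits within 500 bp of a TSS were called in both replicates more often than members, in 48.1%, and members differed from them by -12.9 points (-19.9 to -5.61). These intervals cover counting error only, take neighbouring peaks as independent and are not adjusted for the number of shares compared. Read depth is unknown.

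**Figure D3:**
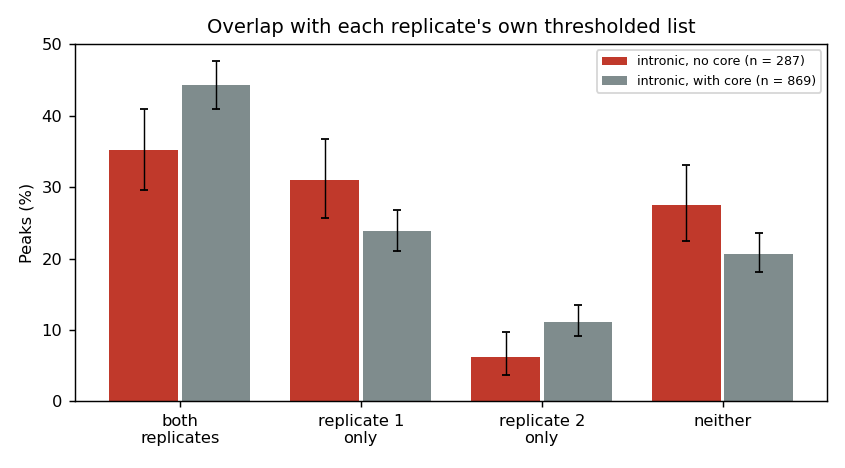
Share of intronic peaks (y axis, percent) that overlap by at least 1 bp a thresholded peak of both replicates, of one replicate only or of neither, for peaks without and with a core. Bars with exact 95% intervals show 35.2% of members and 44.3% of peaks with a core in both replicates, and 27.5% and 20.7% in neither.

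Although the summit window was free of cores, cores gathered just outside it. The nearest core lay at a median of 83 bp from a member summit, and 179 of 287 members (62.4%, exact 95% interval 56.5 to 68.0%) had one within 100 bp. They were compared with windows of the same size centred 500 bp to either side of the members that also had no core, numbering 281. In 39.5% of those a core stood within 100 bp of the centre, so members had 22.9 points more (Newcombe 95% interval 14.7 to 30.6). For WGATAR the share was 36.2% at members and 12.8% at the core-free flanks, a difference of 23.4 points (16.5 to 30.1). Against core-free flanks of the peaks with a core, where WGATAR stood within 100 bp in 19.3%, the difference was 17.0 points (11.0 to 23.2). Among core-free summits within 500 bp of a TSS, a core stood within 100 bp in 57.2%, and the interval of the difference from members included 0 (5.13 points, -2.15 to 12.2). The WGATAR share there was 26.9%, and members had 9.29 points more (2.44 to 16.2).

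Read along the sequence in steps of 25 bp, the core was found in 22.7% of members per step between 50 and 100 bp from the summit, in 17.2% between 100 and 200 bp, and in 15.9% between 400 and 500 bp. WGATAR had 12.02%, 5.97% and 5.88% over the same distances. Both words were most frequent within 100 bp of the summit. At peaks with a core, the steps between 50 and 100 bp held the core in 26.3% and WGATAR in 13.4%.

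**Figure D4:**
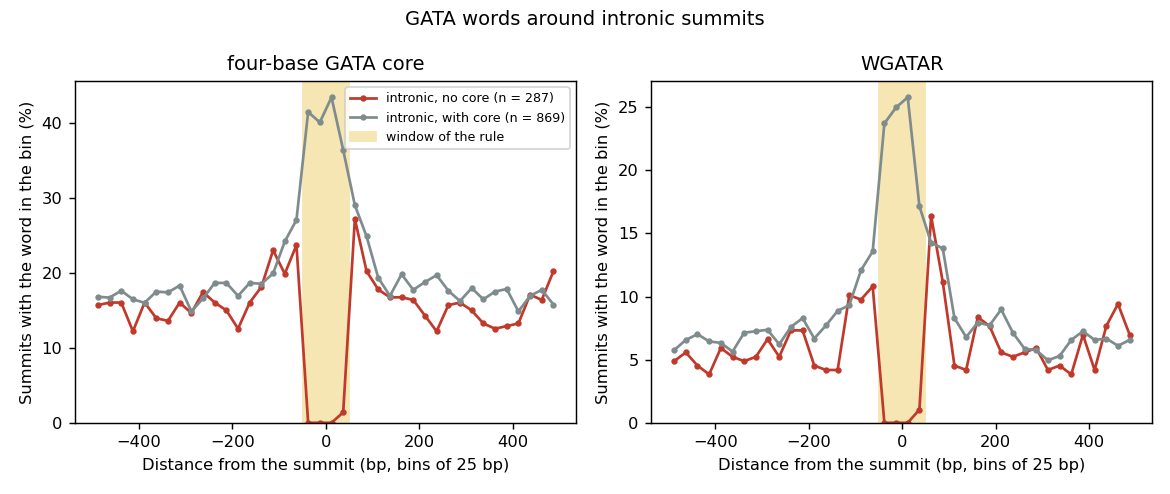
Share of intronic summits (y axis, percent) with a four-base core (left) or WGATAR (right), on either strand, in steps of 25 bp by distance from the summit (x axis, bp), a word being placed by its first base. The rule removes whole cores from the shaded window, so that 4 members have a core that begins in its last step and ends beyond it, and members average 22.7% for the core at 50 to 100 bp, against 15.9% at 400 to 500 bp.

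Median signal did not fall steadily with the distance to the nearest core, and was lowest where none lay within 180 bp. The 179 with a core within 100 bp had a median signal of 81.5 and 38.5% of them were called in both replicates (31.4 to 46.1%). The 71 whose nearest core ended more than 100 and up to 180 bp away had 84.0 and 29.6% (19.3 to 41.6%). For the 37 members with no core within 180 bp the values were 70.6 and 29.7% (15.9 to 47.0%). With WGATAR within 100 bp, 46 of 104 members were called in both (44.2%, 34.5 to 54.3%), and without it 55 of 183 (30.1%, 23.5 to 37.3%). The authors' peak held no core anywhere in 45 members, whose median signal was 75.1 and of which 19 were called in both replicates. Of these 45, 10 had peaks narrower than 360 bp, and 4 had a core within 100 bp of the summit.

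At the edge of the rule, the 28 members whose nearest core ended 51 to 55 bp from the summit had a median signal of 93.5, and the 28 intronic peaks whose nearest core ended 46 to 50 bp away had 81.7. In the first 100 bp beyond the TSS limit, 13 members had a median of 84.5, and in the last 100 bp within it, 19 core-free summits outside exons had 82.8.

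Summits stood farther apart between lists at members. The nearest summit in replicate 1's ranked list lay at a median of 22 bp from the main summit at members and 17 bp at peaks with a core, and in replicate 2's at 28 and 20 bp. Within 50 bp stood 74.0% of members' replicate 1 summits, against 82.8% with a core, a difference of -8.76 points (Newcombe 95% interval -14.6 to -3.32). For replicate 2 the shares were 71.0% and 82.3% (-11.3 points, -17.3 to -5.70). Core-free summits within 500 bp of a TSS had medians of 20 and 28 bp and shares of 78.6% and 73.5% in the same lists, and the intervals of the members' differences from them included 0 (-11.0 to 1.64 and -9.30 to 3.98 points). When the window was moved to the replicate's own summit, 25.6% of members had a core within 50 bp in replicate 1 and 31.1% in replicate 2. At core-free summits within 500 bp of a TSS these shares were 23.4% and 25.1%, and both intervals of the difference included 0. With peaks in both ranked lists, 164 of 284 members (57.7%) had no core at either replicate's summit. Of the core-free summits within 500 bp of a TSS, 65.5% had none, and members differed by -7.72 points (-14.9 to -0.52).

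**Figure D5:**
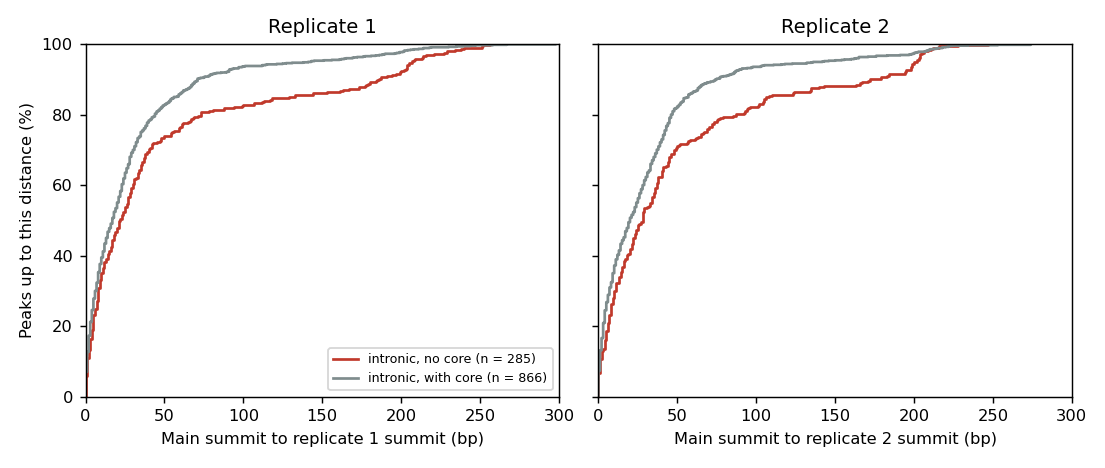
Cumulative share of intronic peaks (y axis, percent) by the distance between the main summit and the nearest summit of the overlapping peak in each replicate's ranked list (x axis, bp), without and with a core. The curve of members lies below in both replicates, with 74.0% against 82.8% within 50 bp in replicate 1 and 71.0% against 82.3% in replicate 2.

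Some members were one of several summits in a place. Another main-list peak overlapped 80 of 287 members (27.9%) and 115 of 869 peaks with a core (13.2%), a difference of 14.6 points (Newcombe 95% interval 9.21 to 20.5). Among core-free summits within 500 bp of a TSS the share was 22.9%, and the interval of the members' difference from it included 0 (4.93 points, -1.44 to 11.5). The nearest partner's summit stood 199 to 270 bp away (median 202 bp). The partner had a core in 32 cases, was itself a member in 46, and was the stronger in 47, of which 24 had a core. Overlapping members had a median signal of 24.5 and the 207 others had 86.7. All 38 members with a signal under 20 overlapped another peak. The share called in both replicates was 36.3% among overlapping members and 34.8% among the others, with intervals of 25.8 to 47.8% and 28.3 to 41.7% that overlap, and an overlapping member can be credited with a replicate peak that belongs to its partner. Counted as merged places, the members made 264. In the thresholded lists of single replicates the share of members overlapping another peak was 7.73% in replicate 1's and 16.3% in replicate 2's.

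Members were spread over the arms. They numbered 65 on X (22.6%), against 15.4% of intronic peaks with a core, a difference of 7.23 points (Newcombe 95% interval 2.09 to 12.9). Of core-free summits within 500 bp of a TSS, 17.1% were on X, and the interval of that difference included 0 (5.50 points, -0.34 to 11.6). On 2L they were fewer, 13.6% against 18.9% (-5.28 points, -9.72 to -0.20), and on 2R, 3L and 3R each interval included 0. Members on X were called in both replicates in 43.1% (30.8 to 56.0%) and had a median signal of 89.7. No member lay on chromosome 4 or Y, or in an annotated transposable element, where all 3032 peaks numbered 3, 0 and 5.

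Inside genes, members lay somewhat deeper than peaks with a core. The median distance to a TSS was 2333 bp at members and 1964 bp with a core, and the shortest intron over the summit had a median length of 9254 bp and 6927 bp. First introns held 72.1% of members and 73.9% of peaks with a core, and the interval of the difference included 0 (-7.89 to 3.98 points). The 31 members over 10000 bp from a TSS were called in both replicates in 19.4% (7.45 to 37.5%), and the 60 members up to 1000 bp from one in 45.0% (32.1 to 58.4%). The summit window averaged 38.9% GC and 20.8% repeat-masked bases at members, against 41.3% and 14.5% with a core, while the members' own flanks had 40.4% and 19.9%. The part that base composition has in the counts of words was not tested.

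Of 20 words known for other factors or as variants of the core, searched on both strands within 50 bp of the summit, 3 differed from the flanks 500 bp away with a 95% interval that missed 0. The first was CAGGTG, which Snail-family repressors bind. It stood at 18 members (6.27%) and in 2.44% of flank windows, a difference of 3.83 points (Newcombe 95% interval 1.05 to 7.39). At peaks with a core its share was 5.06%. TGGGAA, part of the usual Suppressor of Hairless site, was found at 7 members (2.44%) and in 7.84% of flanks (-5.40 points, -8.19 to -2.24). The core variant GATT stood at 65.2% of members and in 57.5% of flanks (7.67 points, 0.73 to 14.3). The variants GATG, at 36.6% of members and in 42.0% of flanks, and GATC, at 16.0% and in 17.8%, had intervals that included 0. So did TGACAG, which Homothorax binds, at 5.57% and in 2.96%, TTTATG of Caudal at 13.6% and in 10.5%, and TAATTA of homeodomain proteins at 9.76% and in 6.45%. GAGAG of the GAGA factor was at 13.2% of members and in 16.6% of flanks, and CAGGTA of Zelda at 1.05% and in 1.22%. TGACTCA of AP-1 stood at 2.44% and in 1.05%, and TTCNNNGAA of Stat92E at 2.44% and in 2.26%. The other 8 words stood at 0.697 to 9.06% of members, and each interval of their difference from the flanks included 0. Among the members of replicate 1's own thresholded list (n = 220), CAGGTG stood at 3.64% and in 3.18% of flanks, TGGGAA at 4.09% and in 6.14%, and GATT at 59.5% and in 56.1%. In that of replicate 2 (n = 135), CAGGTG stood at 5.93% and in 2.96%, TGGGAA at 3.70% and in 7.04%, and GATT at 63.7% and in 51.5%. For 20 words, no adjustment was made for the number of words, and the 2 flanks of a member are not independent.

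Among 320 hexamers found at 20 members or more, 48 (15.0%) were at least 1.5 times as frequent at members as in their flanks, and 34 of 272 hexamers of as large a share of flanks (12.5%) were lower by that factor. At peaks with a core 52 of 275 (18.9%) were higher, and 26 of these held the core. The highest ratio was 2.59 at members and 6.14 at peaks with a core. The rule itself keeps hexamers that hold the core out of member windows and puts them into the other group. The counts and highest ratios of the 2 groups therefore cannot be set against each other. The hexamer AGTGTA led at members, with 7.67% there and 2.96% in flanks. ACAGTG had 10.5% at members and 4.18% in flanks, and CAGTAA had 7.32% and 2.96%. CTAATC, the reverse complement of GATTAG, had 7.67% and 3.14%, and at peaks with a core it had 12.1%, against 4.60% in their flanks. ACTGTA followed with 8.71% and 3.66%, ACCAAT with 6.97% and 3.14%, and ATTAGA with 9.76% and 4.53%. The last of the 10 highest were GTGTAA with a ratio of 2.11, ATTCTA with 2.00 and CAGTGG with 2.00, where TGAGCA tied with 2.00. At peaks with a core, 5 of the 10 also passed 1.5 times their flanks, with ratios of 2.63 for CTAATC, 2.06 for ATTAGA, 1.93 for ACAGTG, 1.77 for ACTGTA and 1.55 for CAGTGG. The hexamers were ranked by this ratio, so it describes them. Against the 281 flank windows without a core, 95 of 320 hexamers (29.7%) were higher by that factor and 63 of 293 (21.5%) lower. The shares thus rose in both directions with fewer windows than the 574 of all flanks, and the part of window number was not tested.

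The members lay in 239 genes. Of 13968 protein-coding genes on the arms, 234 (1.68%) held a member, and 123 of these also had an intronic peak with a core. Host genes were long, with a median of 21096 bp, against 2165 bp for all protein-coding genes, and 22 members lay in more than 1 gene body. The transcriptional regulator sbb (scribbler, FBgn0285917) had 5 members with signals of 72.1 to 226 and 2 intronic peaks with a core. Mi-2, a chromatin-remodelling ATPase, and Su(Tpl), an elongation factor of the ELL family, overlap and shared the same 4 members, with signals of 9.65 to 137. Myo81F, a myosin gene of 1965857 bp, had 4 members of 4.93 to 69.1, none called in both replicates and the gene had no intronic peak with a core.

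Genes with 3 members included CHES-1-like, with signals of 83.9 to 264, and shn, with 78.6 to 191. Each of these had 4 intronic peaks with a core as well. The homeobox gene hth had 3 members of 68.1 to 187 and also 4 peaks with a core. Raf, the kinase downstream of Ras, had 3 members of 70.6 to 158 and no intronic peak with a core. The same held for sdt, a partner of Crumbs in apical polarity, with 74.1 to 146. The Cullin-3 adaptor gene rdx had 3 members of 11.6 to 150.

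Of 191 genes in 13 lists of midgut, signalling and control genes, 26 held a member (13.6%, against 1.68% of protein-coding genes), and 58 held an intronic peak with a core. The lists were chosen with earlier results of these data known, so the higher share describes the lists and is no test of them. No share over all protein-coding genes is given for peaks with a core, so whether the excess is particular to members was not tested. Listed genes are long, with medians by list of 7267 to 32727 bp, and a longer body has more room for a summit, so the part of length was not tested. None of the 5 GATA factor genes held a member, while 3 had an intronic peak with a core. Of 19 endoderm and midgut transcription factor genes, 2 held one. They were hth, with 187 in the main list, 101.02 in replicate 1 and 78.2 in replicate 2, and cad, the posterior homeobox gene caudal, with 91.1, 42.4 and 43.7.

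Of 20 listed genes of midgut epithelium and junctions, 4 held a member, and sdt with its 3 members was not on that list. The basolateral polarity genes l(2)gl, scrib and dlg1 had main-list signals of 91.6, 85.3 and 68.8, and the apical determinant crb had 84.5. None of these 4 members, the strongest of each gene, was called in both replicates, whereas a weaker member in scrib (18.2) was. The ecdysone response and nuclear receptor list had the largest share, 5 of 16. There ftz-f1 had 124 in the main list, 63.3 in replicate 1 and 63.6 in replicate 2, and Eip75B had 112, 64.8 and 50.2. Those members were called in both replicates, whereas that of br, with 100.9, was called in replicate 1 only and the stronger one of EcR, with 88.7, in neither. Hr4 held 3 members of 18.0 to 87.9.

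In the signalling lists, drk, the Grb2 adaptor of receptor tyrosine kinases, had 159 in the main list, 70.2 in replicate 1 and 82.8 in replicate 2, and the ETS gene pnt had 70.6. S (Star), which helps to release EGF receptor ligands, had 2 members, of which the stronger had 89.1, 59.5 and 30.5. They were 3 of the 15 genes on the EGF receptor pathway list, which does not include Raf and its 3 members. The Dpp pathway had shn and Dad, an inhibitory Smad gene with 121, among 14 genes. The Wnt antagonist nkd had 132, the only one of 15 Wnt pathway genes. The Notch coactivator mam had 137 and neur 75.5, among 12 Notch pathway genes. Socs36E, a feedback inhibitor of JAK/STAT signalling, had 69.8 and was 1 of 8.

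Of 17 haemocyte and fat body genes, ush, a cofactor of GATA proteins, had a strongest member of 111, the lipase gene bmm had 91.5 and the lipid droplet gene Lsd-2 had 89.7. The chromatin list had Trl and the Polycomb gene Psc (75.8), 2 of 16. Of 20 muscle genes only kirre, with 74.96, held one, and of 16 nervous system genes none did, with a median gene length of 32727 bp in that list. The nervous system list also had 1 gene with an intronic peak with a core, and the muscle list had 8.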

How the data were processed

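Peak lists on dm6 were used as deposited. Signal, the authors' peak strength, was deposited for each peak. The authors' score, a function of the irreproducible discovery rate, was deposited beside it and is not reported here. Thresholded and ranked lists were told apart by their names. The main list pairs both replicates, per the deposited record. Neither aligner nor peak caller is given in the sources used here. Depth per replicate is unknown. The lists held 3047 peaks (main), 2947 (other series-level list), 2479 and 1822 (thresholded, replicates 1 and 2), and 31595 and 63150 (ranked). Nothing in the labels beyond the replicate number says that the replicates came from separate collections.

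Gene models were those of Ensembl release 115 without pseudogenes and transposable elements, and the RefSeq copy of the assembly read ATG at 99.8% of their start codons. A peak was called in a replicate if it shared at least 1 bp with a thresholded peak of that replicate. A replicate's signal and summit were those of the overlapping peak with the nearest summit in its ranked list. The core had to lie whole within 50 bp of the summit. Flanks were windows centred 500 bp to either side. Shares have exact (Clopper-Pearson) 95% intervals, differences of shares Newcombe 95% intervals, and no p-value was computed. Python 3.11.15, numpy 2.4.6, pandas 2.3.3, scipy 1.17.1, statsmodels 0.14.6 and matplotlib 3.10.9 were used. Core search and overlap were tested on simulated data.

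The members, word list and gene lists were chosen with earlier results of these data known. Genes named are the hosts of the 20 strongest members, the 10 genes with most members and up to 4 genes per list with the strongest member, and the words are the listed ones and the 10 hexamers of highest ratio. The name of 1 member and its sequence are not reported here. Star was matched as S and argos as aos after values were seen. Alternatives were other core windows, WGATAR, a farther TSS limit, merged peaks, stronger peaks, other lists, other overlaps, other flanks and each replicate's own list.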

Additional observations from a re-analysis of the deposited data

How the results depend on the processing

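The share of members on X stayed within its own interval under all 9 alternatives run (18.9 to 26.0%), and the WGATAR share within 100 bp under 6 of 8. The difference on X from peaks with a core was not recomputed under them, so its stability was not tested. The lowest share on X, 18.9%, came with the core searched within 25 bp. With the core searched within 25 bp the members were 566, 80.9% of them had a core within 100 bp, 56.5% had WGATAR there, and 43 listed genes held one. With 100 bp they were 108, of which 29.6% were called in both replicates, and 14 listed genes held one. With WGATAR in place of the core they were 550, in 39 listed genes. Counting an overlap only when it covers 50% of the member peak gave 29.6% called in both replicates, 34.8% in neither and 0.348% overlapping another peak. Summits of overlapping peaks stood 199 to 270 bp apart and 92.7% of member peaks were 360 bp wide, so few could share 50%. The 0.348% follows largely from that layout. Overlap with another peak was 39.6% in the other series-level list and 16.9% among members with a signal of 20 or more. Hexamers past the ratio were 95 against flanks without a core and 11 at a ratio of at least 2. The ratio of median signals reversed in the replicate 1 ranked list (1.01), where the medians are nearly equal. In the lists of 1 replicate alone, members were 135 to 220, the median signal 50.9 to 56.3 and the signal ratio 0.899 to 0.983. Overlap with another peak was 7.73 to 16.3%, a core within 100 bp 70.0 to 73.3% and WGATAR there 37.7 to 48.9%. Members of such a list are called in its own replicate by construction. The share called in both, 42.7% in replicate 1's list and 74.8% in replicate 2's, is therefore the share called in the other replicate. It cannot be set against the 35.2% of the main list. The CAGGTG share was 3.64% against 3.18% of flanks in replicate 1's list, and 1.39% against 1.05% within 25 bp of the summit. Apart from the values set by the list or by peak layout, the cause of these changes was not tested. Alternatives for X, the cores within 100 bp and, apart from the 50% overlap, for overlapping peaks were chosen after the data were seen. No paired analysis was possible because there is 1 group. Unknown read depth limits every share.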

Other observations

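The overlapping hexamers of highest ratio were joined into longer words after their values were seen, so the counts describe them. GATTAGA, which holds ATTAGA (ratio 2.15) and, on the other strand, CTAATC (ratio 2.44), stood within 50 bp of the summit at 10 of 287 members (3.48%, exact 95% interval 1.68 to 6.31%) and in 3 of 574 flank windows (0.523%, 0.108 to 1.52%). It was more frequent still at intronic peaks with a core, 72 of 869 (8.29%, 6.54 to 10.3%), against 24 of 1738 of their flanks (1.38%, 0.887 to 2.05%). Core-free summits within 500 bp of a TSS held it in 14 of 449 (3.12%, 1.71 to 5.18%). Both of the strongest intronic runs with a core shown in the report read GATTAGA on one strand or the other. The 10 members with GATTAGA lay in dlp, rgn, cad, Hgsnat, Abcd3, Rim2, spg with Inx3, MYPT-75D, CG4752 and Tab2. They were of modest strength, with main-list signals of 56.5 to 102 (median 75.1), and 2 of them, in dlp and rgn, were called in both replicates. A core within 100 bp stood beside 6 of the 10, and WGATAR beside 4.

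TACAGTGG, joined from ACTGTA (ratio 2.38), ACAGTG (10.5% of members) and CAGTGG (ratio 2.00), stood at 4 of 287 members (1.39%, exact 95% interval 0.381 to 3.53%), in 3 of 574 of their flanks (0.523%), at 11 of 869 peaks with a core (1.27%) and at 0 of 449 core-free summits near a TSS. AGTGTAA stood at 7 members (2.44%, 0.986 to 4.96%), in 6 of their flanks (1.05%) and at 10 peaks with a core (1.15%). The intervals of these words overlap between members and flanks.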
